A study of Mus musculus with 12 samples.

Results

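The Hox genes of the 4 mammalian clusters were described across the corpus and the cauda epididymidis of control and Dicer1 cKO mice. A gene was taken when the array holds a probe-set annotated to a single symbol made of Hoxa, Hoxb, Hoxc or Hoxd and a number, and each gene is shown by its probe-set with the highest mean over the 12 arrays. That rule gave 36 genes out of 22180 with a probe-set of their own, namely 9 of the Hox A cluster, 10 of Hox B, 9 of Hox C and 8 of Hox D. Only Hoxb5 has a further probe-set annotated to its symbol alone, and probe-sets annotated to several symbols were not taken.

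Transcripts were measured on Affymetrix Mouse Gene 2.0 ST arrays, 3 for each region and genotype and 12 in all. Control mice were Dicer1fl/fl, and Dicer1 cKO mice (called cKO below) were Defb41iCre/wt;Dicer1fl/fl, so that both genotypes carry the floxed Dicer1 alleles on a background of C57Bl/6N mixed with SV129. Dicer1 is the enzyme that cuts hairpin precursors into mature miRNAs. The iCre recombinase is driven by the Defb41 promoter, which is active before puberty and later in the principal cells of the proximal epididymis (initial segment and caput), and the recombined cells therefore lie upstream of both regions on these arrays. Tissue of the same region from both sides of a mouse was pooled, the 12 arrays came from 3 control and 3 cKO mice, so that corpus and cauda arrays share mice, without a statement of which array belongs to which mouse, and the age of the mice is not given in the sources used here. Every value is a log2 intensity per probe-set as the authors normalized it, so that a difference of 1 is a 2-fold change.

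Hox genes encode homeodomain transcription factors that give cells their position along the axis of the body and of several organs. Within a cluster the genes lie in the order of their paralogue numbers, and genes with high numbers, called posterior here from 9 to 13, are generally switched on later and further towards the tail end than those with low numbers, called anterior from 1 to 3 and middle from 4 to 8. The epididymis and the vas deferens both form from the Wolffian duct, and in mice the loss of Hoxa10 or Hoxa11 gives the vas deferens features of the epididymis. Hox proteins bind DNA together with TALE homeodomain partners of the Pbx and Meis families, retinoic acid and Cdx factors act on the clusters from upstream, and Polycomb and Trithorax complexes keep the genes off or on.

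The arrays had medians between 5.19 and 5.31, and pairs of arrays of a group correlated at 0.970 to 0.985, pairs of different groups at 0.957 to 0.984. On the second principal component, which held 13.8% of the variance, cKO corpus replicates 1 and 2 lay at -58.8 and -53.7 and cKO corpus replicate 3 at 36.6, beside the control corpus arrays at 9.68 to 35.0. The mean level of 11 epididymal duct markers was 6.78 on control cauda replicate 3 and 6.25 on cKO cauda replicate 3, against 8.70 to 9.62 on the other cauda arrays and 9.32 to 10.68 in the corpus. The main results on the cauda are therefore also given without those replicates.

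The promoters of the posterior genes that were higher in the cauda are shown first, because these genes carry the main difference between the regions. RefSeq's promoter table for GRCm38.p6 holds 20 of the 36 genes with 22 start sites, and Hoxb9, Hoxc6, Hoxc8 and Hoxc9 are not among them. The 250 bases before the start are printed for Hoxd10 (chr2:74691641-74691890, plus strand), Hoxa10 (chr6:52234940-52235189, minus strand), Hoxd11 (chr2:74682073-74682322, plus strand) and Hoxd13 (chr2:74667975-74668224, plus strand), read 5′ to 3′ along the gene. Hoxa10 and Hoxd11 have a further start in the table that is not printed.
Hoxd10: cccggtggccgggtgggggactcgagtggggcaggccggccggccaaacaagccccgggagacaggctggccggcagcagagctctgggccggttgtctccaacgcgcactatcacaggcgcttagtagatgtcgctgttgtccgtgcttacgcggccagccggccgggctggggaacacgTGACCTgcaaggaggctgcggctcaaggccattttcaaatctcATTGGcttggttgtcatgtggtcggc
Hoxa10: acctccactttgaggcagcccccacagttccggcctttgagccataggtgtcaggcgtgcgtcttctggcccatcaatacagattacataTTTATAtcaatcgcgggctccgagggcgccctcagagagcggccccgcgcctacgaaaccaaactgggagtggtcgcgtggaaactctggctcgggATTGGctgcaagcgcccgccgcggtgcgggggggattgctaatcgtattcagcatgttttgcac
Hoxd11: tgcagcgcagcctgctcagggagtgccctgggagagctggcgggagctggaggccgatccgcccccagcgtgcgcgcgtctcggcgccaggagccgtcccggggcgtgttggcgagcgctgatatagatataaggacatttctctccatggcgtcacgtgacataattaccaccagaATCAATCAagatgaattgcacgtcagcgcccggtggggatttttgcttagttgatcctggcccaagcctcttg
Hoxd13: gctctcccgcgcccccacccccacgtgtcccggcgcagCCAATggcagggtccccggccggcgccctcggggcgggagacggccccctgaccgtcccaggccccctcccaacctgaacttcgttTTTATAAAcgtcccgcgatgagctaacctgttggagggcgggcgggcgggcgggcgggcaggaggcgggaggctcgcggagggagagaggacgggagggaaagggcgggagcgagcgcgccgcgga
Capitals mark matches on either strand to any of 5 motifs: CCAAT, the TATA box TATAAA, the nuclear receptor half-site AGGTCA, the Hox with Pbx motif TGATTNAT and the core TTTATG that Cdx and posterior Hox proteins bind. Hoxd10 holds AGGTCA, read as TGACCT on the printed strand, and a CCAAT box read as ATTGG. Hoxa10 holds a TATA box read as TTTATA and a CCAAT box, Hoxd11 holds TGATTNAT read as ATCAATCA, and in Hoxd13 a CCAAT box stands before a run of TTTATAAA in which TATAAA is met on each strand, the matches overlapping by 4 bases. No motif was common to all 4. The median of 12.5 CpG in the 22 Hox promoters stood beside a median of 6 over all 32851 promoters of the table, and these 4 held 20, 20, 20 and 31, while the starts not printed held 7 (Hoxa10) and 2 (Hoxd11). CCAAT was found in 13 of 22 Hox promoters and in 33.8% of all, AGGTCA in 5 and in 14%, TGATTNAT in 2 and in 2.82%, TATAAA in 3 and in 12.4%, and TTTATG in 4 and in 10.8%. These matches are descriptions of the sequence only, and no binding was measured.

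The first question was which Hox genes differ between the corpus and the cauda. In control mice 5 Hox genes were higher in the cauda (Hoxa10, Hoxb9, Hoxd10, Hoxd11 and Hoxd13) and 2 were lower (Hoxc8 and Hoxc9), and the same 7 genes were called in the same directions on the separate arrays of the cKO mice. The largest differences were those of Hoxd10, Hoxa10 and Hoxd11, which were 5.37-fold, 4.59-fold and 4.43-fold higher in the control cauda. Averaged over genotypes, Hoxa5 and Hoxc6 were called as well, both lower in the cauda. Calls rest on limma with Benjamini-Hochberg adjustment over all 41345 probe-sets at an adjusted p under 0.05. In controls 7 of 36 Hox genes (19.4%) were called against 3.52% of all probe-sets, in cKO mice 7 of 36 (19.4%) against 2.69%, and averaged over genotypes 9 of 36 (25.0%) against 6.87%.

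Direction by direction, 5 of 36 (13.9%) were higher in the control cauda against 1.77% of probe-sets and 2 (5.56%) were lower against 1.75%. In cKO mice 5 (13.9%) were higher against 1.64% and 2 (5.56%) lower against 1.05%. Averaged over genotypes 5 (13.9%) were higher against 3.58% and 4 (11.1%) lower against 3.29%. All 6 cauda arrays lay above all 6 corpus arrays for 5 Hox genes (13.9%), against 2.83% of probe-sets, and below them for 3 (8.33%), against 2.7%. The median difference over the 36 genes was -0.056 beside 0.0047 over all probe-sets, and the median absolute difference was 0.17 beside 0.15. In whole tissue, fewer cells of a type and less RNA per cell cannot be told apart.

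**Figure D1:**
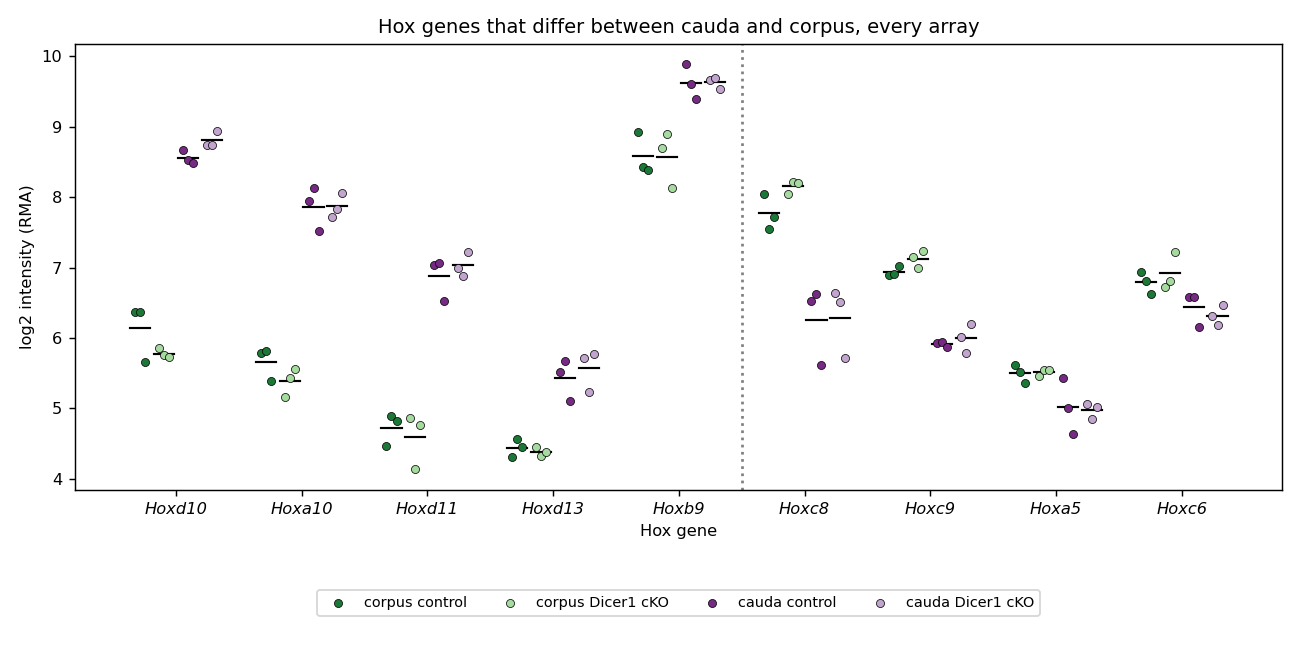
Log2 intensity (vertical axis) on each of the 12 arrays for the 9 Hox genes called between cauda and corpus, with points for arrays, short lines for group means and colours for the 4 groups. To the left of the dotted line the cauda arrays lie above the corpus arrays for all 5 genes, and to the right they lie below them for Hoxc8, Hoxc9 and Hoxc6 while 1 cauda array of Hoxa5 reaches into the corpus range.

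Among the posterior genes, Hoxd10 had log2 intensities of 6.38, 6.37 and 5.66 on the control corpus arrays, 5.85, 5.75 and 5.72 on the cKO corpus arrays, 8.67, 8.53 and 8.49 on the control cauda arrays and 8.74, 8.74 and 8.94 on the cKO cauda arrays. The lowest cauda array was thus above the highest corpus array by a wide margin, and the cKO cauda arrays were the highest of all. The cauda minus corpus difference of Hoxd10, a gene of the Hox D cluster known for patterning of the hindlimb and lower spinal cord, was 2.42 in controls (standard error 0.18, adjusted p = 9.61e-05) and 3.03 in cKO mice (standard error 0.18, adjusted p = 2.47e-05) in limma.
Hoxd11, which acts with Hoxa11 in the forming kidney and forearm, stood at 4.47, 4.89 and 4.82 on the control corpus arrays, 4.87, 4.14 and 4.77 on the cKO corpus arrays, 7.04, 7.07 and 6.53 on the control cauda arrays and 6.99, 6.88 and 7.22 on the cKO cauda arrays. Its corpus values were all below 5.23, the median of all values on the arrays, and its cauda values were all above it. The difference was 2.15 in controls (standard error 0.22, adjusted p = 0.000434) and 2.44 in cKO mice (standard error 0.22, adjusted p = 0.000183) in limma.
Hoxd13, the last gene of its cluster and required for digits and the genital tubercle, stood at 4.31, 4.56 and 4.45 on the control corpus arrays, 4.45, 4.33 and 4.39 on the cKO corpus arrays, 5.52, 5.68 and 5.11 on the control cauda arrays and 5.71, 5.24 and 5.78 on the cKO cauda arrays. The corpus arrays lay close together and below the overall median, and control cauda replicate 3 was the only cauda array that also lay below it. The difference was 0.99 in controls (standard error 0.18, adjusted p = 0.0117) and 1.19 in cKO mice (standard error 0.18, adjusted p = 0.00457) in limma, and without control corpus replicate 1 or control cauda replicate 2 the control value was 0.93 or 0.87, with adjusted p = 0.0515 and 0.0526.

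The genes between and beside these in the Hox D cluster did not pass the test. Hoxd12, which lies between Hoxd11 and Hoxd13, had group means of 4.76, 4.69, 4.85 and 5.13 in the control corpus, cKO corpus, control cauda and cKO cauda, the order kept for all lists of means here, and its averaged difference was 0.27 (95% interval -0.034 to 0.57, adjusted p = 0.344). Hoxd9, the neighbour of Hoxd10 on the other side, had means of 7.92, 7.76, 7.65 and 7.91 and a difference of -0.063 (95% interval -0.37 to 0.24, adjusted p = 0.873). The step from Hoxd9 to Hoxd10 was thus from an interval around 0 to one that began at 2.44. Hoxd8 had means of 9.67, 9.50, 9.47 and 9.47 (difference -0.12 (95% interval -0.34 to 0.10, adjusted p = 0.608)) and Hoxd3, active in the neck and hindbrain, had means of 6.89, 6.71, 6.88 and 6.93 (difference 0.10 (95% interval -0.26 to 0.46, adjusted p = 0.818)). Hoxd1 had means of 4.65, 4.50, 4.23 and 4.25, with values below the overall median on every array and a difference of -0.34 (95% interval -0.58 to -0.089, adjusted p = 0.117).

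**Figure D2:**
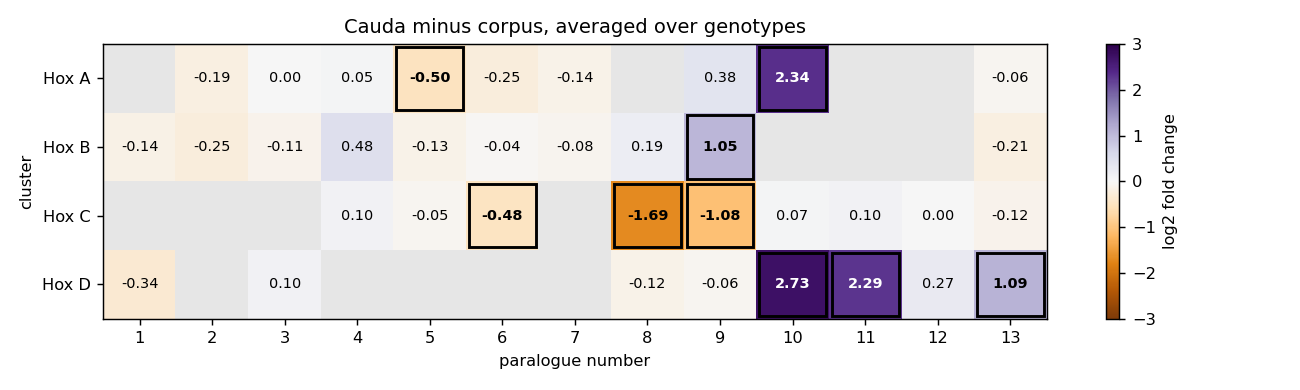
Cauda minus corpus log2 fold change averaged over genotypes (colour and printed value) for each Hox gene, by cluster (rows) and paralogue number (columns), with outlined cells for an adjusted p under 0.05 in limma and grey cells where no gene was analysed. The outlined purple cells lie at numbers 9, 10, 11 and 13 and the outlined orange cells at numbers 5, 6, 8 and 9, with no outlined cell at numbers 1 to 4.

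In the Hox A cluster the posterior gene that differed was Hoxa10, whose loss in mice alters the vas deferens and the uterus. It stood at 5.79, 5.82 and 5.39 on the control corpus arrays, 5.17, 5.43 and 5.56 on the cKO corpus arrays, 7.94, 8.12 and 7.52 on the control cauda arrays and 7.72, 7.83 and 8.06 on the cKO cauda arrays. Every cauda array was above every corpus array, with control cauda replicate 3 the lowest of the cauda arrays. The difference was 2.20 in controls (standard error 0.19, adjusted p = 0.000177) and 2.49 in cKO mice (standard error 0.19, adjusted p = 7.22e-05) in limma. The neighbouring Hoxa9, a gene also used in blood stem cells, had means of 6.66, 6.41, 6.96 and 6.89 and an averaged difference of 0.38 (95% interval 0.032 to 0.73, adjusted p = 0.224), and its corpus and cauda arrays overlapped. Hoxa13, which acts with Hoxd13 in the limb and genital tubercle, had means of 5.25, 5.0, 5.07 and 5.07 and a difference of -0.057 (95% interval -0.33 to 0.22, adjusted p = 0.873). Hoxa11, between Hoxa10 and Hoxa13, was not analysed here.

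In the Hox B cluster Hoxb9, a gene of the thoracic skeleton, stood at 8.93, 8.43 and 8.39 on the control corpus arrays, 8.70, 8.89 and 8.13 on the cKO corpus arrays, 9.89, 9.60 and 9.39 on the control cauda arrays and 9.67, 9.69 and 9.54 on the cKO cauda arrays. The lowest cauda array, at 9.39, was above the highest corpus array, at 8.93, so the regions did not overlap in either genotype. The difference was 1.05 in controls (standard error 0.22, adjusted p = 0.0248) and 1.06 in cKO mice (standard error 0.22, adjusted p = 0.0251) in limma. These calls within 1 genotype lost their adjusted p when any of 4 control arrays (corpus 2 and 3, cauda 1 and 2) or any of 4 cKO arrays (corpus 1, cauda 1, 2 and 3) was left out, with control values of 0.97, 0.95, 0.92 and 1.06 and cKO values of 1.12, 1.04, 1.03 and 1.11. Without replicate 3 of both cauda groups the values were 1.16 in controls and 1.11 in cKO mice, and both calls were lost as well. Averaged over genotypes the difference was 1.05 (95% interval 0.71 to 1.39, adjusted p = 0.00156) and was called in all 21 alternatives.
Hoxb13, the last gene of the cluster and known as a prostate factor, had means of 4.90, 4.85, 4.53 and 4.80, below the overall median on every array, and a difference of -0.21 (95% interval -0.46 to 0.044, adjusted p = 0.387).

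The posterior genes of the Hox C cluster behaved otherwise. Hoxc9, a gene of the thoracic spinal cord and skeleton, stood at 6.90, 6.91 and 7.02 on the control corpus arrays, 7.14, 6.99 and 7.24 on the cKO corpus arrays, 5.92, 5.94 and 5.87 on the control cauda arrays and 6.02, 5.78 and 6.20 on the cKO cauda arrays. The corpus arrays were all above the cauda arrays, and the spread within groups was small. Its difference was -1.03 in controls (standard error 0.13, adjusted p = 0.00157) and -1.13 in cKO mice (standard error 0.13, adjusted p = 0.000964) in limma.
Hoxc10, Hoxc11, Hoxc12 and Hoxc13 showed no called difference. Hoxc10, a hindlimb gene, had means of 6.08, 6.09, 6.08 and 6.22 and a difference of 0.066 (95% interval -0.21 to 0.34, adjusted p = 0.85). Hoxc11 (means 3.93, 3.87, 3.94 and 4.05), Hoxc12 (means 4.93, 4.90, 4.88 and 4.96) and Hoxc13, a hair and nail factor (means 4.81, 4.65, 4.51 and 4.71), were below the overall median on every array, and their averaged differences were 0.097, 0.0030 and -0.12. For probe-sets this dim a change in the transcript may be understated. Hoxc10 and its paralogues Hoxa10 and Hoxd10 thus had differences of 0.066, 2.34 and 2.73. The 4 paralogues of number 9 had 0.38 (Hoxa9), 1.05 (Hoxb9), -1.08 (Hoxc9) and -0.063 (Hoxd9), the only number with a call in each direction. Of 15 posterior genes, 5 were higher in the cauda and 1 was lower averaged over genotypes, against 3.58% and 3.29% of all probe-sets. Their median difference was 0.097, beside 0.0047 over all probe-sets.

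**Figure D3:**
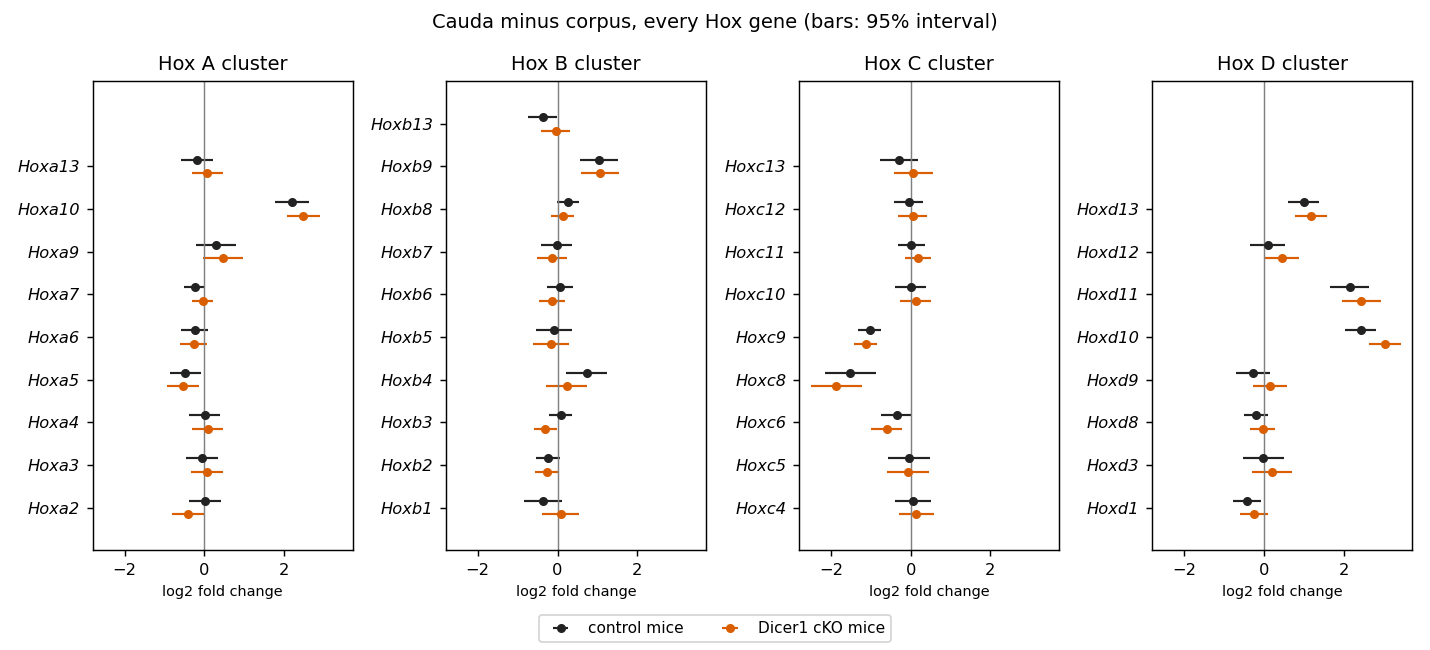
Cauda minus corpus log2 fold change (horizontal axis, with its 95% interval as a bar) for each of the 36 Hox genes by cluster, in control mice (black) and Dicer1 cKO mice (orange). The genotypes lie side by side for the called genes, with 2.42 and 3.03 for Hoxd10 and -1.52 and -1.87 for Hoxc8.

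Of 14 middle genes 3 were lower in the cauda and 0 were higher averaged over genotypes, against 3.29% and 3.58% of all probe-sets. The median difference of these genes was -0.099, beside 0.0047 over all probe-sets. Hoxc8, which patterns the thoracic skeleton and forelimb motor neurons, stood at 8.05, 7.55 and 7.72 on the control corpus arrays, 8.04, 8.22 and 8.20 on the cKO corpus arrays, 6.53, 6.62 and 5.61 on the control cauda arrays and 6.64, 6.51 and 5.72 on the cKO cauda arrays. All corpus arrays were above all cauda arrays, and the lowest values were those of replicate 3 of both cauda groups, the same arrays on which the duct markers were low. The difference was -1.52 in controls (standard error 0.29, adjusted p = 0.0155) and -1.87 in cKO mice (standard error 0.29, adjusted p = 0.00531) in limma. Without both of these arrays it was -1.20 in controls and -1.58 in cKO mice, with adjusted p = 0.00985 and 0.00325. Without control corpus replicate 1 or 3 the control value was -1.38 or -1.55, with adjusted p = 0.065 and 0.058.

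Smaller differences were called for a pair of middle genes only after averaging over genotypes. Hoxc6, a thoracic gene next to Hoxc8, stood at 6.94, 6.81 and 6.63 on the control corpus arrays, 6.73, 6.81 and 7.22 on the cKO corpus arrays, 6.59, 6.58 and 6.16 on the control cauda arrays and 6.31, 6.18 and 6.46 on the cKO cauda arrays. Its regions did not overlap over the 12 arrays. The averaged difference was -0.48 (95% interval -0.75 to -0.21, adjusted p = 0.0408) in limma. Hoxa5, which is needed for the lung and the lower neck, stood at 5.61, 5.52 and 5.37 on the control corpus arrays, 5.45, 5.55 and 5.54 on the cKO corpus arrays, 5.43, 5.01 and 4.64 on the control cauda arrays and 5.06, 4.85 and 5.03 on the cKO cauda arrays. Control cauda replicate 1 lay within the corpus range and the other cauda arrays below it. Its averaged difference was -0.50 (95% interval -0.78 to -0.23, adjusted p = 0.0348) in limma. Both calls were close to the threshold: leaving out single arrays ended the call of Hoxc6 for 11 of the 12 arrays (all but cKO corpus replicate 1) and that of Hoxa5 for 11 of the 12 (all but control cauda replicate 1), with averaged values from -0.52 to -0.40 for Hoxc6 and from -0.60 to -0.41 for Hoxa5. Without replicate 3 of both cauda groups the averaged values were -0.44 for Hoxc6 and -0.42 for Hoxa5, and neither was called.

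The other middle genes did not pass. In the Hox B cluster Hoxb4, which had the largest difference among them, had means of 6.67, 6.81, 7.41 and 7.04 and an averaged difference of 0.48 (95% interval 0.12 to 0.84, adjusted p = 0.124), with control cauda replicate 2 at 7.90 as its highest array. Hoxb5 had means of 8.15, 8.33, 8.06 and 8.16 (difference -0.13 (95% interval -0.45 to 0.19, adjusted p = 0.731)), and its other probe-set gave -0.25 (adjusted p = 0.173 in limma). For Hoxb6 the means were 9.02, 9.10, 9.09 and 8.96 (difference -0.036), for Hoxb7 8.56, 8.80, 8.54 and 8.66 (difference -0.080) and for Hoxb8 9.75, 9.95, 10.00 and 10.08 (difference 0.19 (95% interval -0.0054 to 0.39, adjusted p = 0.29)). These Hox B genes were above the overall median on every array in both regions, and each of their averaged 95% intervals lay within a 2-fold change either way. In controls alone the interval of Hoxb4 reached further, from 0.22 to 1.24 (adjusted p = 0.129 in limma).
In the Hox A and Hox C clusters Hoxa4 had means of 6.14, 5.95, 6.15 and 6.04, Hoxa6 of 6.99, 6.93, 6.75 and 6.67 and Hoxa7 of 6.61, 6.73, 6.37 and 6.69. Hoxc4 had means of 5.39, 5.31, 5.45 and 5.45 and Hoxc5 of 4.03, 4.17, 3.99 and 4.10, the latter below the overall median on every array. Their averaged differences ran from -0.25 for Hoxa6 to 0.10 for Hoxc4, and none passed the test.

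None of the 7 anterior genes differed between the regions by the test, with averaged differences from -0.34 (Hoxd1) to 0.10 (Hoxd3), and 6.87% of all probe-sets as the background. Hoxa2, which shapes the second pharyngeal arch, had means of 4.96, 5.10, 4.98 and 4.69, and Hoxa3, needed for the thymus, of 4.81, 4.61, 4.75 and 4.68. Hoxb1, a gene of a single hindbrain segment, had means of 5.08, 4.83, 4.72 and 4.91. These were dim, below the overall median on most arrays. Hoxb2 had means of 7.39, 7.43, 7.15 and 7.17 and Hoxb3 of 7.15, 7.41, 7.23 and 7.10, and both were above the overall median on all arrays, as were 20 of the 36 Hox genes, while 7 were above it on none and 9 on some. Group SDs over the 36 genes ran from 0.0096 to 0.56, with a median of 0.19 (n = 3 each).

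Without replicate 3 of both cauda groups, 6 Hox genes were called in controls, 6 in cKO mice and 7 averaged over genotypes. The share of all probe-sets called in this refit is not given here, so these counts are not set against a background. The values without these arrays were 2.46 and 2.96 for Hoxd10 in controls and cKO mice, 2.32 and 2.35 for Hoxd11, 1.16 and 1.09 for Hoxd13, 2.37 and 2.39 for Hoxa10 and -1.01 and -1.22 for Hoxc9, and all of these remained called. Smooth muscle markers moved with the region as well. Averaged over genotypes, where 3.58% of all probe-sets were higher and 3.29% lower, all 12 of 12 were higher in the cauda (median difference 1.55), and their mean level ran from 8.96 to 9.29 on control corpus, 9.47 to 9.95 on cKO corpus, 10.74 to 11.08 on control cauda and 10.84 to 11.23 on cKO cauda arrays. Fibroblast markers had 3 of 10 higher and 0 lower (median 0.57), with levels of 8.93 to 9.29, 9.29 to 10.14, 9.78 to 10.01 and 10.08 to 10.33 in the same order. Of the epithelial markers 1 of 10 was higher and 4 were lower (median -0.42), and of the epididymal duct markers 0 of 11 were higher and 2 were lower (median -1.50). Of 11 germ cell and sperm markers 0 were called in either genotype, with 7 at an unadjusted p under 0.05 in limma in controls (against 15.9% of all probe-sets) and 0 in cKO mice (against 12.8%). Their median difference was 1.68 in controls and -0.69 in cKO mice, and their levels were 6.99 to 8.33, 5.81 to 8.71, 8.89 to 9.78 and 6.18 to 7.01 in the same order. The part of these cell types in the Hox differences was not tested.

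Genes that work with or above the Hox genes were taken from lists. Of 8 measured TALE partners, Meis2 and Meis1 were higher in the cauda and 0 were lower averaged over genotypes, against 3.58% and 3.29% of all probe-sets, with a list median of -0.085 beside 0.0047 over all probe-sets. Meis2 stood at 7.58, 7.39 and 7.31 on the control corpus arrays, 7.84, 7.46 and 7.80 on the cKO corpus arrays, 9.21, 9.35 and 8.49 on the control cauda arrays and 9.33, 9.38 and 9.35 on the cKO cauda arrays, with no overlap between regions, and its averaged difference was 1.62 (95% interval 1.30 to 1.94, adjusted p = 5.48e-05) in limma. For Meis1 the averaged difference was 0.92 (95% interval 0.60 to 1.24, adjusted p = 0.00262), with corpus arrays between 7.45 and 8.27 and cauda arrays between 8.36 and 8.99. Of 22 measured Polycomb and Trithorax genes 0 were called in either direction, and 3 had an unadjusted p under 0.05 in limma, against 18.3% of all probe-sets.

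Of 19 measured genes of retinoic acid, Cdx and Gdf11 signalling, 4 were higher and 2 lower in the cauda averaged over genotypes, against 3.58% and 3.29% of all probe-sets, with a list median of -0.011. Rxra, a retinoid receptor, differed by 0.72 (95% interval 0.49 to 0.96, adjusted p = 0.00161) in limma, Crabp2, which carries retinoic acid to the nucleus, by 1.09 (95% interval 0.72 to 1.46, adjusted p = 0.00215) and the receptor Rarg by 0.63 (95% interval 0.37 to 0.88, adjusted p = 0.00667). The other called members, named after their values were seen, were the receptor Rarb, at 0.66, the synthesizing enzyme Aldh1a2, at -0.64, and the degrading enzyme Cyp26a1, at -0.82. The receptors Rara, Rxrb and Rxrg, at 0.45, -0.16 and -0.011, the carrier Crabp1, at 0.17, and the degrading enzyme Cyp26b1, at 0.36, were not called averaged over genotypes. In controls 3 members were higher and 2 lower, against 1.77% and 1.75% of all probe-sets, and in cKO mice 3 and 0, against 1.64% and 1.05%. Called in controls but not averaged were Rara, at 0.81 (adjusted p = 0.0477 in limma), and the growth factor Gdf11, at -1.48 (adjusted p = 0.00472 in limma). In cKO mice the values of Rara and Gdf11 were 0.098 and 0.34, not called. Of 13 genes that flank the clusters 0 were called in either direction, with a median of -0.095 and 3 at an unadjusted p under 0.05 in limma, against 18.3% of all probe-sets.

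The clusters also hold miRNA genes, shown here because Dicer1 makes their products and because miR-196 is known to cut Hoxb8 RNA in mouse embryos. RefSeq's mature 5p sequences (GRCm38.p6), with the seed (bases 2 to 8) in capitals, fall into 2 seed families, ACCCUGU for miR-10 and AGGUAGU for miR-196.
mmu-miR-10a-5p: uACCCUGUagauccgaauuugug
mmu-miR-10b-5p: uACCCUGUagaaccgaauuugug
mmu-miR-196a-5p: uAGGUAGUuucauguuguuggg
mmu-miR-196b-5p: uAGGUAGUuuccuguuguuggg
Mir10a lies on chromosome 11 with the Hox B cluster, Mir10b on chromosome 2 with Hox D, Mir196a-1 on chromosome 11 with Hox B, Mir196a-2 on chromosome 15 with Hox C and Mir196b on chromosome 6 with Hox A. The arrays have probe-sets for the precursor transcripts, not for the mature miRNAs. Of 7 measured non-coding RNAs of the clusters, Mir10b and Mir196a-1 were higher in the cauda averaged over genotypes and 0 were lower, against 3.58% and 3.29% of all probe-sets (list median 0.12). Mir10b stood at 2.66, 3.22 and 3.00 on the control corpus arrays, 3.20, 2.71 and 3.44 on the cKO corpus arrays, 3.90, 3.92 and 3.41 on the control cauda arrays and 3.90, 3.77 and 3.89 on the cKO cauda arrays, dim values that were below the overall median throughout, with a difference of 0.76 (95% interval 0.43 to 1.10, adjusted p = 0.0105) in limma. Mir196a-1, from the Hox B cluster, differed by 0.75 (95% interval 0.44 to 1.06, adjusted p = 0.00746) in limma. Neither was called within a genotype, where the adjusted p in limma was 0.0787 and 0.0915 in controls and 0.119 and 0.0631 in cKO mice. Mir196a-2, named because it gives the same mature miRNA as Mir196a-1, differed by only 0.050 (95% interval -0.41 to 0.51, adjusted p = 0.938 in limma). Mir10a and Mir196b have no probe-set of their own here, so their levels are not known.

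The next question was whether Hox genes differ between Dicer1 cKO and control mice. No Hox gene passed the adjusted threshold in the corpus, in the cauda, averaged over regions or in the difference between regions, and 0 of all 41345 probe-sets did, a background of 0% in each. At an unadjusted p under 0.05 in limma 0 of 36 Hox genes passed in the corpus against 8.35% of all probe-sets, 1 in the cauda against 5.66%, 1 averaged over regions against 7.97% and 1 in the difference between regions against 6.5%. The 95% intervals of the cKO effect lay within a 2-fold change either way for 35 of 36 genes in the corpus (the exception was Hoxc8, -0.26 to 1.02) and for 36 of 36 in the cauda. The median absolute effect was 0.15 in the corpus beside 0.16 over all probe-sets, and 0.11 in the cauda beside 0.13.

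**Figure D4:**
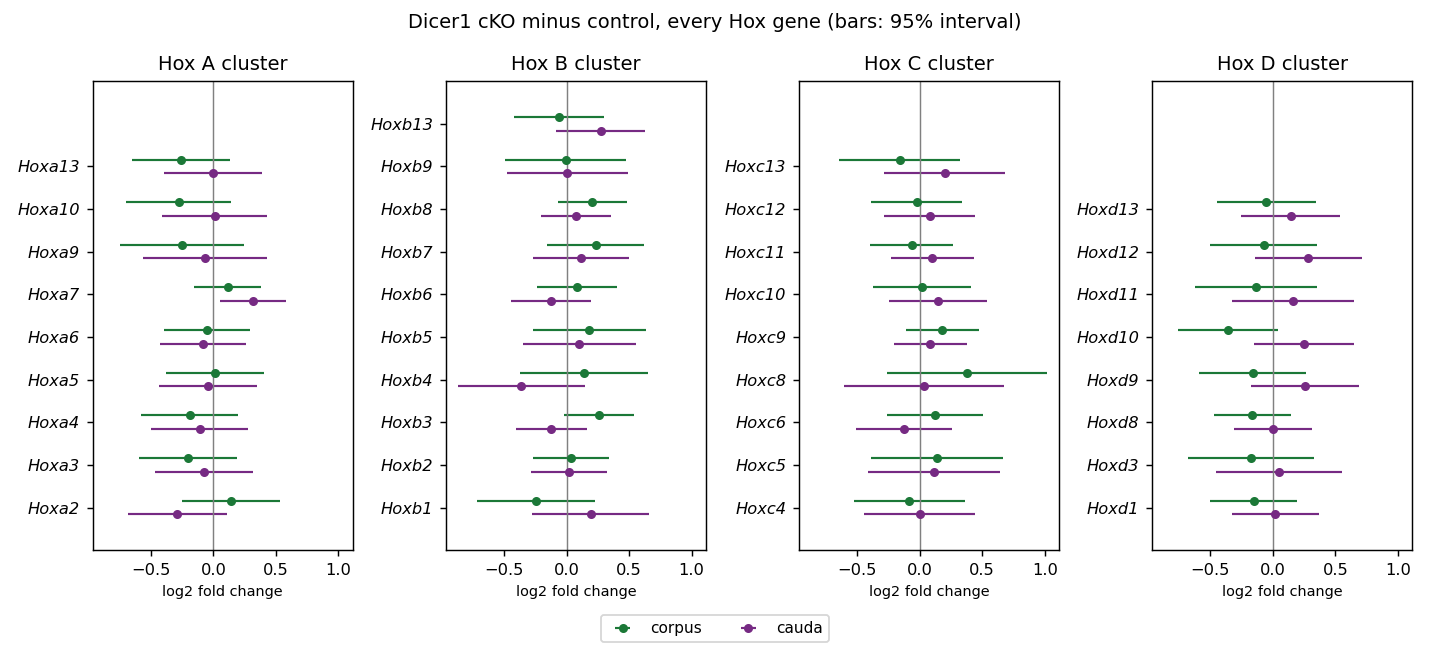
Dicer1 cKO minus control log2 fold change (horizontal axis, with its 95% interval as a bar) for each of the 36 Hox genes by cluster, in the corpus (green) and the cauda (purple). All intervals but that of Hoxa7 in the cauda include 0, and the points of the Hox D genes lie left of 0 in the corpus and at or right of it in the cauda.

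In the corpus the smallest unadjusted p-values were those of Hoxb3, Hoxd10 and Hoxb8. Hoxb3 had 7.12, 7.10 and 7.22 on control and 7.20, 7.52 and 7.51 on cKO corpus arrays, with 1 cKO array between the controls, and the effect was 0.26 (95% interval -0.024 to 0.54, adjusted p = 0.644 in limma). Its cauda arrays, in contrast, stood at 7.13, 7.30 and 7.24 in controls and 7.14, 7.19 and 6.98 in cKO mice. Hoxd10, whose corpus values are given above, had 2 control arrays above all cKO arrays and 1 below them, and the effect was -0.36 (95% interval -0.76 to 0.039, adjusted p = 0.651 in limma). It was -0.60 without control corpus replicate 3, and near -0.24 without control corpus replicate 1 or 2. Hoxb8, the known miR-196 target, had 9.69, 9.70 and 9.85 on control and 9.82, 10.03 and 10.02 on cKO corpus arrays, which overlapped, and the effect was 0.21 (95% interval -0.071 to 0.49, adjusted p = 0.73 in limma). In the cauda the Hoxb8 effect was 0.078 (95% interval -0.20 to 0.36).

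In the cauda the smallest unadjusted p-values were those of Hoxa7, Hoxb13 and Hoxa2. Hoxa7, a middle gene of the trunk, had 6.38, 6.5 and 6.24 on control and 6.66, 6.72 and 6.68 on cKO cauda arrays. The effect was 0.32 (95% interval 0.050 to 0.58, unadjusted p = 0.0241 and adjusted p = 0.68 in limma), and it was 0.12 in the corpus (95% interval -0.15 to 0.38). Hoxb13 had 4.51, 4.41 and 4.67 on control and 4.78, 4.78 and 4.85 on cKO cauda arrays (effect 0.27, 95% interval -0.087 to 0.63), and Hoxa2 had 5.09, 5.09 and 4.75 on control and 4.93, 4.69 and 4.45 on cKO cauda arrays (effect -0.29, 95% interval -0.68 to 0.11). Both were dim, and the genotypes overlapped for Hoxa2. The Hoxa2 value ran from -0.41 without cKO cauda replicate 1 to -0.17 without cKO cauda replicate 3. Without replicate 3 of both cauda groups the effects were 0.25 for Hoxa7, 0.32 for Hoxb13 and -0.28 for Hoxa2, and 0 Hox genes were called.

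The Hox D genes had effects of the same sign within each region. In the corpus all 8 were below 0, from -0.36 (Hoxd10) to -0.052 (Hoxd13), and in the cauda all 8 were above 0, from 0.00034 (Hoxd8) to 0.28 (Hoxd12), although each of their intervals included 0. The difference between the regions was largest for Hoxd10, at -0.61 (95% interval -1.17 to -0.043, unadjusted p = 0.0373 and adjusted p = 0.766 in limma). Genes of 1 cluster were read from the same arrays and are not independent. In the other clusters the cKO effects lay on both sides of 0 in each region, with medians of -0.19 (Hox A), 0.11 (Hox B) and 0.018 (Hox C) in the corpus and -0.069, 0.048 and 0.085 in the cauda. The signs were not particular to Hox D, since all genes of paralogue numbers 1, 11, 12 and 13 had them in any cluster. Over the 36 Hox genes 21 effects were below 0 in the corpus and 25 above 0 in the cauda. Medians over all probe-sets leaned the same way, at -0.027 and 0.019.

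Among genes above the Hox genes, 0 members of any list were called between cKO and control. In the corpus the member of the Polycomb and Trithorax list with the smallest p was Ezh2, the methyltransferase of Polycomb, at 7.13, 6.72 and 6.92 on control and 8.11, 7.82 and 7.52 on cKO arrays. The effect was 0.89 (95% interval 0.49 to 1.29, adjusted p = 0.262 in limma). Of this list 3 of 22 had an unadjusted p under 0.05 in limma, against 8.35% of all probe-sets. Besides Ezh2 these were Cbx7, at -0.77, and Bmi1, at 0.33. For Cbx7, cKO corpus replicates 1 and 2 stood at 7.13 and 7.31, while replicate 3, at 8.39, lay within the control range of 8.23 to 8.52. Gdf11, a growth factor known to set the place along the trunk where posterior Hox genes come on, had 6.86, 6.80 and 7.30 on control and 5.64, 5.28 and 5.34 on cKO corpus arrays (effect -1.57, adjusted p = 0.123 in limma). Of its list 4 of 19 had an unadjusted p under 0.05 in limma in the corpus, against the same 8.35%. The others were Rara, at 0.74, Aldh1a3, at 0.70, and Aldh1a1, at -0.32, the last named after its value was seen. In these same corpus arrays the mean level of 10 macrophage and leukocyte markers was 7.20 to 7.60 in controls and 7.67 to 8.98 in cKO mice, with 8 of 10 at an unadjusted p under 0.05 in limma (against 8.35% of all probe-sets) and 0 called. By the same measure fibroblast markers had 6 of 10 (median effect 0.76) and smooth muscle markers 5 of 12 (median effect 0.44), with 0 called. Epithelial markers had 1 of 10, epididymal duct markers 2 of 11, and germ cell and sperm markers 0 of 11. The mean level of 11 germ cell and sperm markers was 8.89 to 9.78 on control and 6.18 to 7.01 on cKO cauda arrays, with 10 of 11 at an unadjusted p under 0.05 in limma (against 5.66%) and 0 called, while no Hox gene in the cauda had an effect beyond 0.36 in size. The part of these cells in the Hox values was not tested.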

How the data were processed

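Transcripts of the corpus and cauda epididymidis were measured on Mouse Gene 2.0 ST arrays in 4 groups of 3 arrays. Per probe-set, the authors deposited a log2 intensity made by robust multi-array averaging (RMA, named in the submitters' processing notes without a version) in Partek, and these values were used unchanged. The labels describe a miRNA labelling kit and array, whereas the methods and the probe-sets are those of the whole-transcript array. Groups and replicate numbers came from the sample labels. RNA came from 3 control and 3 cKO mice, so corpus and cauda arrays share mice, and the fit treats all 12 arrays as independent. Precision is limited by how many arrays there are.

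Of 41345 probe-sets 23521 carry 1 gene symbol. All 36 Hox genes matched the RefSeq gene table of GRCm38.p6 by gene identifier. Group means of all 12 arrays entered 1 fit in limma 3.58.1 (R 4.3.3), with 8 residual degrees of freedom and 3.18 added by the empirical Bayes step. Contrasts were cauda minus corpus in each genotype and averaged, cKO minus control in each region and averaged, and the difference of the cKO effects (corpus minus cauda). Tests were two-sided with Benjamini-Hochberg adjustment over all 41345 probe-sets, and an adjusted p under 0.05 was called. The procedure was tested on simulated data. No coordinates were given to probe-sets, and intensities of different probe-sets were not set against each other.

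Every Hox gene is named, with its values on every array where it was called and with its group means otherwise. The 3 with the smallest p in each cKO contrast by region also have their values on the arrays of that region, and at most 3 members with the smallest p are named from each other list, with exceptions stated. The members and lists were chosen with earlier results of these data known. In the averaged region contrast 0 members were called among adipocyte (5 measured), macrophage and leukocyte (10) and endothelial and nerve markers (6), against 6.87% of all probe-sets. At an unadjusted p under 0.05 in limma these lists had 0, 1 and 2 members, against 18.3% of all probe-sets. Alternatives were each probe-set's own variance, probe-sets above the median of all values, probe-sets with 1 symbol, further quantile normalization, median centring, the mean of a gene's probe-sets, replicate blocks, only the 6 arrays compared, and each array left out. Leaving out replicate 3 of both cauda groups was added after seeing the data.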

Additional observations from a re-analysis of the deposited data

How the results depend on the processing

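No direction was reversed, and the count of called Hox genes stayed within 1.5 times its value in every alternative run. Leaving out each array in turn gave 5 to 7 Hox genes called between cauda and corpus in controls (7 with all arrays), 6 to 8 in cKO mice (7) and 7 to 8 averaged over genotypes (9), and 0 to 0 in each cKO contrast. With each probe-set's own variance the counts were 5, 6 and 7, with probe-sets above the median 6, 6 and 8, and with only the 6 arrays compared 6 in each genotype. Shares of all probe-sets called in these and the other refits are not given here, so the counts are not set against a background. Hoxd10, Hoxa10, Hoxd11 and Hoxc9 were called in every alternative in all 3 region contrasts. Of refits of called genes, 12 of 153 in controls (7 genes), 7 of 153 in cKO mice (7) and 27 of 188 averaged over genotypes (9) lost the call, all of Hoxb9, Hoxc8, Hoxd13, Hoxa5 or Hoxc6, with adjusted p in limma up to 0.111, 0.101 and 0.105. Averaged calls of Hoxa5 and Hoxc6 were lost in 13 and 14 of 21 alternatives. Hoxd13 falls out of the fit limited to probe-sets above the median, so it has 1 alternative fewer. The 6 genes named for the cKO contrasts kept their sign, with adjusted p between 0.411 and 1.00.

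Equal replicate numbers were not taken as pairs, since no source ties them to a mouse and not every pair correlated above 0.1. Deviations of corpus and cauda arrays of 1 number correlated at -0.038 to 0.082 in controls and 0.067 to 0.11 in cKO mice, those of control and cKO arrays at 0.085 to 0.21 in the corpus and 0.022 to 0.069 in the cauda, and 2, 3, 3 and 2 of 3 arrays correlated best with their own number, a hint from the data and not from the design. With the replicate block 7, 7 and 8 Hox genes were called in controls, in cKO mice and averaged, Hoxc6 being the 1 lost, and with a block by genotype 7, 7 and 9. Each cKO count was 0 with the replicate block.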

Other observations

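Other genes that pattern the Wolffian duct, from which the epididymis forms, also differed between the regions. Of 17 measured, 5 were higher in the cauda and 1 was lower averaged over genotypes, against 6.87% of all probe-sets called, with a list median of -0.0059. Wnt7b, a secreted signal of duct epithelia, stood at 6.26, 5.97 and 5.97 on the control corpus arrays, 6.28, 6.95 and 6.18 on the cKO corpus arrays, 8.05, 7.89 and 7.97 on the control cauda arrays and 7.70, 7.55 and 7.98 on the cKO cauda arrays. Its cauda arrays were all above its corpus arrays, and the difference was 1.59 (95% interval 1.27 to 1.90, adjusted p = 5.47e-05) in limma. Fgfr2, the receptor for mesenchymal fibroblast growth factors, differed by 1.14 (95% interval 0.88 to 1.39, adjusted p = 0.000118) and Bmp7, a growth factor of the same duct, by 1.52 (95% interval 1.16 to 1.88, adjusted p = 0.000192) in limma. Fgf7 and Wnt5a, made in mesenchyme, were higher too, at 1.03 and 0.91, and Pax8, a factor of the early duct, was lower at -1.10 (these 3 were named after their values were seen). Higher members thus included signals known from the epithelium and from the mesenchyme, and which cells expressed them in this whole tissue was not tested.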
